A study of Homo sapiens with 12 samples.

Results

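The genes described here are 4 classes of one pericellular proteolysis system: the secreted matrix metalloproteinases MMP1, MMP2, MMP3 and MMP10 with the membrane-anchored MMP14, the plasminogen activators PLAU and PLAT, the urokinase receptor PLAUR, and the inhibitor TIMP1. They were taken by gene symbol, and all 9 were found among the 60603 genes of the count table. Each of them has the enzyme, receptor or inhibitor role that its name gives, and 8 of the 9 passed the filter on low counts that leaves 17775 genes to test. MMP10 did not pass, with 0 to 10 reads in any library.

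On GRCh38.p14, per RefSeq, MMP10 (chr11:102770502-102780628), MMP1 (chr11:102789919-102798160) and MMP3 (chr11:102835801-102843609) lie side by side on the minus strand of chromosome 11. MMP2 is at chr16:55478830-55506691, MMP14 at chr14:22836585-22847758, PLAU at chr10:73908832-73917494, PLAUR at chr19:43646095-43670169 and TIMP1 at chrX:47582436-47586789, and PLAT is on chromosome 8. All values are per gene.

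The study sequenced poly(A) RNA of the established human bladder cancer line T24 in 12 libraries. It concerns AlissAID, an auxin-inducible method for degrading a chosen endogenous protein. The 4 groups of 3 libraries were WT cells with no treatment, WT cells given 5-Ad-IAA, cells of genotype NS1 with no treatment, and NS1 cells given 5-Ad-IAA. 5-Ad-IAA is an auxin analogue that serves as the inducer in such systems. NS1 is not spelled out in the labels, and the labels give no further transgene for either line and do not say whether NS1 cells are 1 clone, so what both lines share beyond the T24 background is not known here. Dose and duration of the inducer were not used here. Nothing in the labels says that the replicates came from separate cultures, so every p-value measures only the spread between these libraries, which may be technical.

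Matrix metalloproteinases are zinc enzymes made as inactive precursors that cut collagens, proteoglycans and other matrix proteins. Urokinase, the product of PLAU, sits on its receptor PLAUR at the cell surface and turns plasminogen into plasmin, which in turn can activate metalloproteinase precursors, MMP3 and MMP1 among them. The genes of this system are well known for their expression in invasive bladder cancer, and several of them, MMP1, MMP3, PLAU and PLAUR included, have AP-1 and ETS elements in their control regions and respond to growth factor and RAS signalling.

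Library totals ran from 10593934 to 20266996 counts, and replicate 1 was the deepest library of every group. KRT7, KRT8, KRT18 and CD44, which mark T24 carcinoma cells, stood at 450 normalised CPM (counts scaled to a common library size) or more in all libraries, and VIM at 23.5 to 87.7 CPM. Of the 7 luminal urothelial markers GATA3 stood at 22.2 to 104.5 CPM and PPARG at 39.5 to 106 CPM, UPK2 at 0.864 to 2.30 CPM, and UPK1A, UPK1B, KRT20 and UPK3A at 0.371 CPM or less, UPK3A with no read. The 4 fibroblast markers summed to 0 to 0.249 CPM, with DCN at 0 in all libraries. The 4 leukocyte markers summed to 8.21 to 26.3 CPM, of which CD68 gave 7.78 to 23.6 CPM and CD14 0.432 to 2.71 CPM, with ITGAM at 0 and PTPRC at 1 read or none. The 3 endothelial markers summed to 0.0617 to 1.06 CPM in untreated and 1.35 to 4.07 CPM in treated NS1 cells, beside 1.16 to 3.37 and 0.720 to 2.04 CPM in WT cells. The luminal markers summed to 97.6 to 114 and 148 to 213 CPM in NS1 cells, beside 66.0 to 128 and 63.8 to 122 CPM in WT cells. With the inducer in NS1 cells edgeR's quasi-likelihood test called PECAM1 (log2 fold change 3.19, adjusted p = 0.0251) and GATA3 (1.34, adjusted p = 0.0281) higher. It called CD44 lower (-0.69, adjusted p = 0.0103). Between untreated lines VIM was called lower in NS1 cells (-1.20). Between treated lines VIM (-1.30) and CD44 (-0.82) were called lower, and KRT7 (1.16), GATA3 (1.38) and PPARG (0.84) higher. Their part in the results below was not tested. In a bulk library fewer cells that express a gene and less RNA per cell cannot be told apart.

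TIMP1, MMP14 and the plasminogen activators carried most of the signal. Scaled by exon length, mean levels in untreated WT cells fell from TIMP1 at 143 ± 29.4 CPM per kilobase (SD, n = 3) through MMP14 at 60.7 ± 15.9, PLAU at 25.8 ± 3.56, PLAT at 19.5 ± 5.10, MMP1 at 18.1 ± 15.3, PLAUR at 13.6 ± 5.37, MMP3 at 6.46 ± 5.64 and MMP2 at 0.964 ± 0.921 to MMP10 at 0.220 ± 0.0951. PLAT, MMP1 and PLAUR followed each other by less than 1 SD of any of them, while TIMP1, MMP14 and PLAU were separated by more than that. In untreated NS1 cells PLAU at 53.5 ± 4.97 CPM per kilobase stood beside MMP14 at 50.5 ± 10.4, within its spread, and MMP1 was at 1.68 ± 0.750 and MMP3 at 1.602 ± 1.09. In treated NS1 cells MMP2 at 2.36 ± 1.06 CPM per kilobase stood above MMP3 at 0.453 ± 0.263 and MMP1 at 0.433 ± 0.295. The order of these means was the opposite of that in untreated WT cells, but untreated WT replicate 1 alone already had MMP2 highest, with 2.02 CPM per kilobase against 0.428 for MMP1 and 0 for MMP3.

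**Figure D1:**
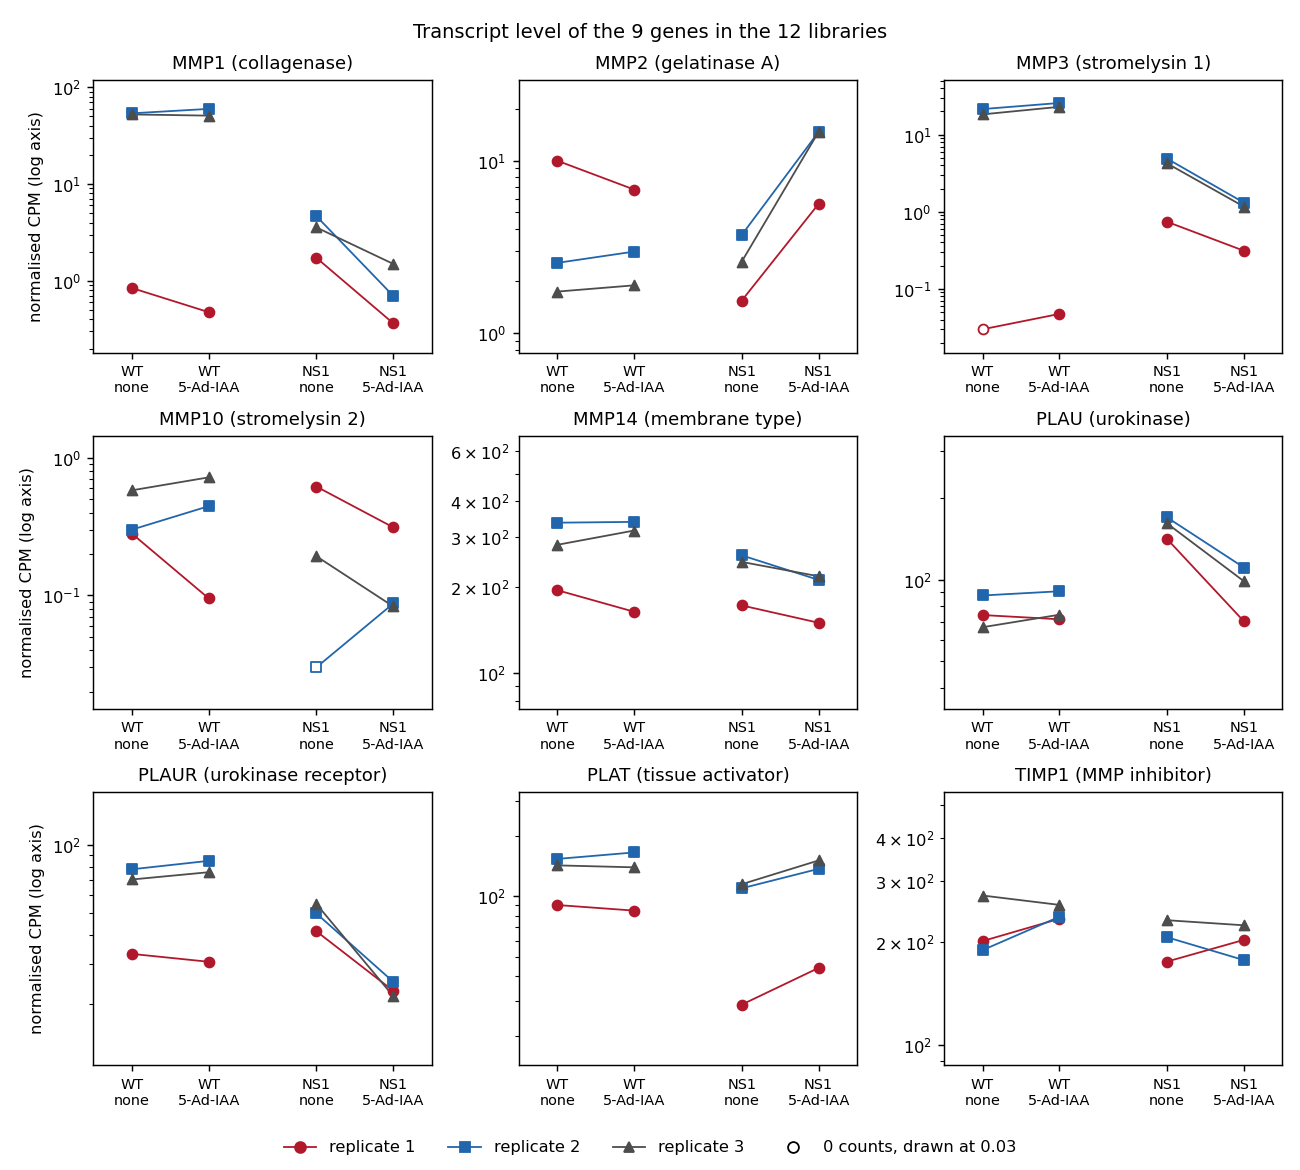
Normalised CPM (log axis) of the 9 genes in the 12 libraries, 1 panel per gene and 1 column per group. Points are libraries, lines join the untreated and treated library with the same replicate number, and open points mark 0 reads, drawn at 0.03. Replicate 1 lies far below replicates 2 and 3 for MMP1 and MMP3 in WT cells, and the 3 treated NS1 libraries lie above the untreated ones for MMP2 and below them for PLAU and PLAUR.

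The interstitial collagenase MMP1 and the stromelysin MMP3 had the widest ranges of the 8 tested genes. MMP1 stood at 0.843, 53.7 and 52.3 normalised CPM in replicates 1, 2 and 3 of untreated WT cells and at 0.475, 59.6 and 50.8 CPM in treated WT cells. It stood at 1.73, 4.65 and 3.56 CPM in untreated and at 0.364, 0.698 and 1.49 CPM in treated NS1 cells. Replicates 2 and 3 of WT cells were thus high, and replicate 1 of both WT groups was lower than every untreated NS1 library. MMP3 showed 0, 21.4 and 18.3 CPM in untreated and 0.0475, 25.7 and 22.9 CPM in treated WT cells, against 0.741, 4.87 and 4.23 CPM in untreated and 0.312, 1.31 and 1.16 CPM in treated NS1 cells. Replicates 2 and 3 of WT cells were again above every NS1 library, and replicate 1 of WT cells was below all of them, with 0 reads in the untreated and 1 read in the treated library.

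In WT replicate 1, MMP1 was 62.8-fold (untreated) and 116-fold (treated) below the mean of replicates 2 and 3, and MMP3 in the untreated library was at least 141-fold below it, counted against a floor of 3 reads for that library. In NS1 cells the same ratio was 2.38-fold and 3.01-fold for MMP1 and 6.14-fold and 3.96-fold for MMP3. MMP2 went the other way in WT cells, where replicate 1 was 4.65-fold and 2.80-fold above the mean of the other replicates, and in NS1 cells replicate 1 was its lowest library. MMP14 and PLAT were lowest in replicate 1 of all 4 groups. The labels give no batch, and what sets replicate 1 apart was not tested. Results are therefore also given without it.

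MMP3 and MMP10 lie in the metalloproteinase cluster on chromosome 11 and share a run of identical bases longer than the 75-cycle kit reads, so short reads from this run cannot be assigned to either gene. The run is shown for that reason. It is 96 bases long and spans coding positions 401 to 496 of MMP3 in transcript ENST00000299855.9 of GENCODE 29 on GRCh38, minus strand.
MMP3 and MMP10 shared run: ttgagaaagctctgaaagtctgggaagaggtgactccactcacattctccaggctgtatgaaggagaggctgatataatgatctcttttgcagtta
Of all 50-base words of their transcripts, 2.88% of those of MMP3 and 3.36% of those of MMP10 occur in the other gene, and the longest run that MMP1 shares with either is 18 bases. MMP10, also a stromelysin, had 6, 4 and 6 reads in untreated WT cells and 10, 0 and 2 in untreated NS1 cells, too few to compare.

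PLAU fell by 0.76 on the log2 scale in NS1 cells given the inducer. A further 5 genes missed the threshold over all libraries without pairing and passed it when libraries with the same replicate number were compared: MMP1, MMP3 and PLAUR lower, MMP2 and PLAT higher. MMP14 and TIMP1 passed in neither fit. The comparison asks what the compound changed in the line that carries the NS1 genotype.

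With a mean for each group and no pairing, 1 of the 8 tested genes was called at an adjusted p under 0.05 (edgeR's quasi-likelihood test, two-sided, Benjamini-Hochberg adjustment), where 6.15% of all genes tested were called. The groups did not overlap for 4 of the 8 genes, MMP1, PLAU and PLAUR lower and MMP2 higher, where 27.2% of all genes did not overlap. Untreated and treated libraries of 1 line with the same number deviated together from their group means, and the numbers were taken as pairs. In NS1 cells the correlations of these deviations were 0.39 and 0.38 within numbers 2 and 3, but also 0.28 and 0.37 across them. They thus set replicate 1 apart, and whether numbers 2 and 3 are true pairs was not tested. With a block for each replicate number within each line, 6 of the 8 genes were called, where 25.9% of all genes were. With 1 block for each number across both lines, 3 were called (MMP2, PLAU and PLAUR), where 13.6% of all genes were. Without replicate 1 and without a block, 5 were called (MMP1, MMP2, MMP3, PLAU and PLAUR), where 11.4% were. The median log2 fold change over the 8 genes in the unpaired fit was -0.49 beside 0.01 over all genes tested, and the median of its size was 0.92 beside 0.197. The genes were chosen with earlier results of these data known, so these shares and medians describe the set and do not test it.

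PLAU, urokinase, read 142, 170 and 162 normalised CPM in untreated NS1 cells and 70.2, 111 and 98.8 CPM in treated ones. Every treated library was below every untreated one, and the ratio within each replicate number was below 1 in 3 of 3 pairs. The log2 fold change was -0.76 (SE 0.16, adjusted p = 0.0172), a 1.69-fold lower level, and -0.78 (SE 0.08, adjusted p = 8.9e-06) with the block within each line. The unpaired call was lost without replicate 2 (adjusted p = 0.182), without replicate 3 (0.275), and when 1 library was left out from untreated NS1 replicate 2 (0.0695), untreated NS1 replicate 3 (0.0626) or treated NS1 replicate 3 (0.0557), at log2 fold changes between -0.90 and -0.59 over all such fits.

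PLAU shares 916 exon bases, 31.1% of its exon length, with C10orf55 on the opposite strand. No source used here states whether strand was used in counting, so reads of the pair cannot be told apart. C10orf55 had 4361 reads over the 12 libraries against 17125 for PLAU, and its log2 fold change in this comparison was -0.75 (SE 0.18, adjusted p = 0.0299).

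PLAUR, the urokinase receptor, read 41.7, 49.9 and 54.9 CPM in untreated NS1 cells and 22.9, 25.1 and 21.7 CPM in treated ones. The groups were clear of each other, and all 3 treated libraries lay within a narrow band. The unpaired log2 fold change of -1.07 (SE 0.35) missed the threshold at adjusted p = 0.0867, and the block within each line gave -1.06 (SE 0.10, adjusted p = 2.46e-06). Without replicate 1 the value was -1.16 (SE 0.12, adjusted p = 0.000186).

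The gelatinase MMP2 read 1.54, 3.71 and 2.60 CPM in untreated and 5.61, 14.7 and 14.7 CPM in treated NS1 cells. All treated libraries were above all untreated ones, 3 of 3 pairs were higher, and the mean log2 ratio over pairs was 2.12 ± 0.34 (SD). The unpaired log2 fold change was 2.15 (SE 0.63, adjusted p = 0.0627), 4.43-fold, and the block within each line gave 2.11 (SE 0.18, adjusted p = 1.33e-06). Untreated NS1 replicate 1 held only 25 reads of MMP2.

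MMP1 and MMP3, whose values stand above, were lower in treated NS1 cells in 3 of 3 pairs each, with mean log2 ratios of -2.08 ± 0.76 and -1.67 ± 0.37 (SD). The MMP1 libraries did not overlap between the groups, whereas replicate 1 of untreated NS1 cells lay within the treated range for MMP3. Unpaired log2 fold changes were -2.03 (SE 1.81, adjusted p = 0.594) for MMP1 and -1.89 (SE 1.73, adjusted p = 0.606) for MMP3. The block within each line gave -1.98 (SE 0.29, adjusted p = 0.000142) and -1.78 (SE 0.24, adjusted p = 7.85e-05). Treated NS1 libraries held as few as 7 reads of MMP1 and 6 of MMP3.

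PLAT, the tissue-type activator, read 28.8, 110 and 115 CPM in untreated and 43.9, 137 and 151 CPM in treated NS1 cells. Replicate 1 was low in both groups and the groups overlapped, but each pair was higher with the inducer. The log2 fold change was 0.39 (SE 0.49, adjusted p = 0.723) unpaired and 0.43 (SE 0.08, adjusted p = 0.000763) with the block within each line. MMP14, a membrane-type metalloproteinase that activates the MMP2 precursor, read 173, 259 and 245 CPM in untreated and 150, 212 and 218 CPM in treated NS1 cells. It was lower in 3 of 3 pairs, yet missed the threshold unpaired (-0.22, SE 0.27, adjusted p = 0.716) and with the block (-0.22, SE 0.08, adjusted p = 0.0592). TIMP1, which blocks many metalloproteinases, read 175, 206 and 231 CPM in untreated and 203, 177 and 223 CPM in treated NS1 cells. Its log2 fold change was -0.02 (SE 0.15, adjusted p = 0.961), with 1 pair higher and 2 lower.

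**Figure D2:**
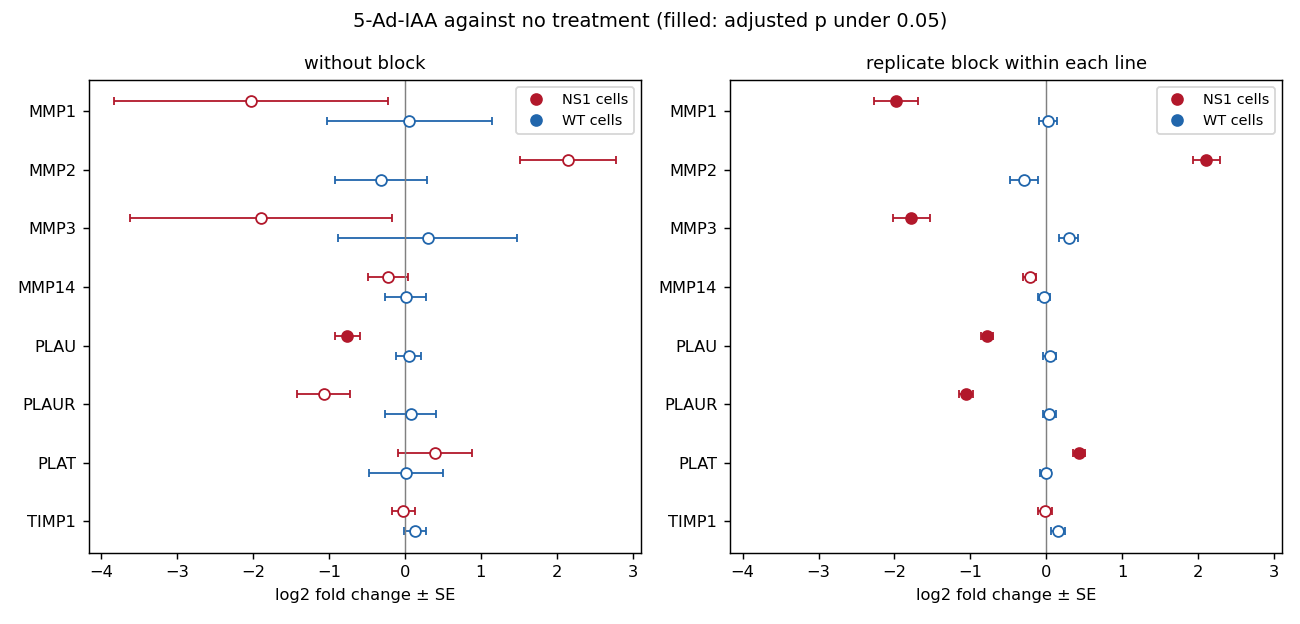
Log2 fold change with the inducer in NS1 and in WT cells for the 8 tested genes, with bars of 1 SE, without pairing (left) and with a block for each replicate number within each line (right). Filled points passed the threshold. In NS1 cells 1 gene passed without pairing, where 6.15% of all genes did, and 6 passed with it, where 25.9% did. The values were nearly the same in both fits, with shorter bars under pairing, and in WT cells no gene passed.

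The same compound moved none of the 8 genes past the threshold in WT cells. Log2 fold changes there were 0.06 for MMP1, -0.31 for MMP2 (-1.04 without treated WT replicate 1 and 0.90 without untreated WT replicate 1), 0.30 for MMP3, 0.01 for MMP14, 0.05 for PLAU, 0.08 for PLAUR, 0.01 for PLAT and 0.13 for TIMP1. No gene of all those tested was called in WT cells by edgeR's quasi-likelihood test, with or without the block, or by DESeq2, and 94 genes (0.529%) had an unadjusted p under 0.05. PLAU read 74.2, 87.6 and 66.9 CPM in untreated and 71.6, 90.8 and 74.4 CPM in treated WT cells. PLAUR read 33.2, 78.0 and 70.4 CPM in untreated and 30.7, 84.9 and 75.7 CPM in treated WT cells. MMP2 read 9.98, 2.55 and 1.74 CPM in untreated and 6.79, 2.97 and 1.89 CPM in treated WT cells. For all 8 genes the WT groups overlapped, where 3.41% of all genes did not.

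Whether the effect differed between the lines was tested as the interaction of genotype and inducer. Without pairing no gene of the 8 was called, where 0.0225% of all genes were and 12.4% had an unadjusted p under 0.05. PLAU had an interaction of -0.81 on the log2 scale (SE 0.23, adjusted p = 0.15), MMP2 of 2.46 (SE 0.88, adjusted p = 0.249, with 1.25 to 3.19 when libraries were left out) and PLAUR of -1.15 (SE 0.48, adjusted p = 0.343). With 1 block for each number across both lines PLAU alone was called, where 3.57% of all genes were, and without replicate 1 and without a block 4 were called (MMP1, MMP2, MMP3 and PLAUR), where 3.24% were. With the block within each line 6 of the 8 were called, where 14% of all genes were. Of these, PLAUR had -1.10 (adjusted p = 9.39e-05) and MMP2 2.41 (adjusted p = 5.53e-05). MMP14 at -0.19 (adjusted p = 0.305) and TIMP1 at -0.17 (adjusted p = 0.451) were not called.

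Before treatment PLAU was higher in NS1 cells than in WT cells. PLAU at 158 ± 14.7 CPM in untreated NS1 against 76.2 ± 10.5 CPM in untreated WT cells (SD, n = 3 each) was the one gene of 8 called, where 12.5% of all genes were, and the one whose groups did not overlap, where 31% of all genes did not. Its log2 difference was 1.05 (SE 0.17, adjusted p = 0.00178), a 2.07-fold higher level, and the call was lost without replicate 3 (adjusted p = 0.103). C10orf55, its antisense neighbour, differed by 1.00 (SE 0.18, adjusted p = 0.00402). With the inducer PLAU stood at 93.4 ± 20.9 CPM in NS1 cells against 78.9 ± 10.4 CPM in treated WT cells, a difference of 0.24 (SE 0.16, adjusted p = 0.299) with overlapping libraries.

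MMP1 and MMP3 were lower in untreated NS1 cells on average, by log2 differences of -3.43 (SE 1.30, adjusted p = 0.104) and -2.01 (SE 1.32, adjusted p = 0.351), and did not pass. Without replicate 1 they passed, at -3.67 (SE 0.18, adjusted p = 3.86e-07) and -2.12 (SE 0.16, adjusted p = 8.08e-06). PLAUR at -0.50 (adjusted p = 0.0107) and PLAT at -0.40 (adjusted p = 0.0241) also passed without replicate 1, which gives 5 called genes, PLAU included, where 19.6% of all genes were called. MMP2 changed sign between these fits, from -0.96 (adjusted p = 0.363) to 0.55 (adjusted p = 0.221), without passing in either. MMP14 differed by -0.27 (adjusted p = 0.566) and TIMP1 by -0.11 (adjusted p = 0.669).

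With the inducer in both lines, MMP1 and PLAUR were lower in NS1 cells, 2 of the 8 genes, where 28.2% of all genes were called. PLAUR stood at 23.2 ± 1.71 CPM in treated NS1 and 63.8 ± 29.0 CPM in treated WT cells. Its log2 difference was -1.45 (SE 0.35, adjusted p = 0.00728), all NS1 libraries lay below all WT libraries, and the call was lost without replicate 2 (adjusted p = 0.117) or replicate 3 (0.143). MMP1 differed by -5.51 (SE 1.56, adjusted p = 0.0185), although WT replicate 1 lay within the NS1 range. The MMP1 call was lost without replicate 2 (adjusted p = 0.193) or 3 (0.158), and without treated WT replicate 2 (0.0524), treated NS1 replicate 1 (0.0618) or treated NS1 replicate 2 (0.0618). Over all fits that left out libraries its log2 difference ran from -6.17 to -4.88. TIMP1 libraries did not overlap either, at -0.27 (adjusted p = 0.198), where 43.4% of all genes did not overlap.

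Without replicate 1, which leaves 2 libraries per group, 5 of the 8 genes were called between treated lines, where 34% of all genes were. The log2 differences of MMP1, MMP3 and MMP14 were close to those over all replicates, with smaller SEs, while that of MMP2 was larger. MMP1 differed by -5.63 (SE 0.22, adjusted p = 2.52e-08), MMP3 by -4.29 (SE 0.20, adjusted p = 6.57e-08), MMP2 by 2.57 (SE 0.23, adjusted p = 8.94e-06), MMP14 by -0.60 (SE 0.11, adjusted p = 0.0013) and PLAUR by -1.78 (SE 0.12, adjusted p = 1.11e-06). With all replicates MMP3 at -4.21 (SE 1.56, adjusted p = 0.0607), MMP2 at 1.50 (SE 0.59, adjusted p = 0.0764) and MMP14 at -0.50 (SE 0.27, adjusted p = 0.188) did not pass. The 2 comparisons between lines share no library, while each shares a group with the inducer comparison in NS1 cells and with that in WT cells. The higher PLAU level in untreated NS1 cells and its fall with the inducer thus rest on the same untreated NS1 libraries.

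**Figure D3:**
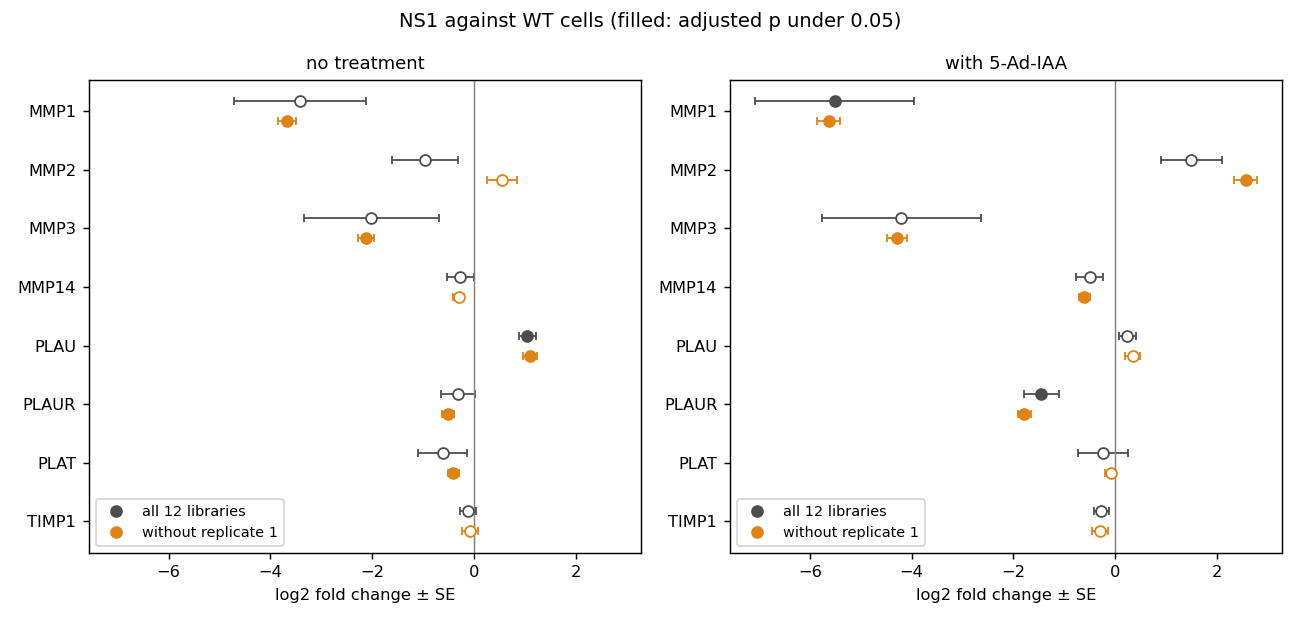
Log2 difference between NS1 and WT cells for the 8 tested genes, without and with the inducer, from all libraries and without replicate 1, with bars of 1 SE and filled points where the threshold was passed. PLAU passes without inducer and not with it, and the bars of MMP1, MMP2 and MMP3 shorten when replicate 1 is left out.

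Promoter sequence from RefSeq on GRCh38.p14 was matched for 5 of the 9 genes: MMP10, MMP14, PLAU, PLAUR and TIMP1. MMP1, MMP2, MMP3 and PLAT had no entry. TIMP1 was called in none of the fits without a block, but was called lower between treated lines with 1 block for each number across both lines. The windows of the 2 urokinase system genes that were called in a comparison and of TIMP1 are printed so that their motifs can be read side by side. Each is the 200 bases before a transcription start site, read 5′ to 3′ on the strand of the gene, and capitals mark the AP-1 element TGAGTCA and the ETS core GGAA on either strand. PLAU has 2 start sites in the table.
PLAUR, chr19:43670170-43670369, minus strand: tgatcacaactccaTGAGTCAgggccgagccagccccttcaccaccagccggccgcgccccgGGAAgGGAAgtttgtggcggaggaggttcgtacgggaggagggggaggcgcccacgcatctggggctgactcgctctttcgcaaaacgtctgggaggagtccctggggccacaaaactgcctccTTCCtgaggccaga
PLAU first site, chr10:73910410-73910609, plus strand: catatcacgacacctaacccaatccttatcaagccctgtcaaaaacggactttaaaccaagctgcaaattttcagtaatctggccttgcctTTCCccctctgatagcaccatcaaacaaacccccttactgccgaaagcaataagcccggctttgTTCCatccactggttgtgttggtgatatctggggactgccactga
PLAU second site, chr10:73910932-73911131, plus strand: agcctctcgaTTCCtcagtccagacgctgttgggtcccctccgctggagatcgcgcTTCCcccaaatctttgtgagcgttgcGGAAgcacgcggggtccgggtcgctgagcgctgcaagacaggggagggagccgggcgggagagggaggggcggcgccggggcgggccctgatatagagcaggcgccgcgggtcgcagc
TIMP1, chrX:47582236-47582435, plus strand: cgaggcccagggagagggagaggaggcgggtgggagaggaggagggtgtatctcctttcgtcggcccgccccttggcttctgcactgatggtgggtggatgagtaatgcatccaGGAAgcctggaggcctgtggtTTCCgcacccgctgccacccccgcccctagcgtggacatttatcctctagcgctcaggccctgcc
Over the 250 bases searched before each start site, PLAUR alone of the 5 matched genes held the exact AP-1 element TGAGTCA on either strand. It lay 186 bases before the PLAUR start, and 4.2% of 35116 windows of that length hold it. The ETS core was found in 92.7% of them, and all matched windows of the 5 genes held it. These matches are letters in a window and say nothing of binding. Variants of the AP-1 element and bases further upstream were not searched, so a window without a match does not show that a gene lacks such sites.

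Of the other genes of the pathway, 4 lists were examined: 18 further metalloproteinases, 10 inhibitors, 10 partners of plasminogen and 18 ADAM and ADAMTS proteases, of which 8, 7, 7 and 12 passed the count filter. With the inducer in NS1 cells 1 gene of each list was called without pairing, where 6.15% of all genes were, and all 4 were higher: the collagenase MMP13 (2.51, SE 0.62, adjusted p = 0.0315), the inhibitor TIMP2 (0.65, SE 0.14, adjusted p = 0.0184), the endocytic receptor LRP1 (0.97, SE 0.24, adjusted p = 0.0329) and the aggrecanase ADAMTS5 (0.87, SE 0.22, adjusted p = 0.0333). MMP13 read 1.91, 1.38 and 0.962 CPM in untreated and 15.3, 4.19 and 4.98 CPM in treated NS1 cells, without overlap. MMP9, the other gelatinase, had at most 1 read in any library.

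With the block within each line, 5 of the 8 tested further metalloproteinases were higher in treated NS1 cells and none lower. Over all genes 13% were called higher and 12.8% lower. The furthest were MMP13, MMP19 at 1.49 (adjusted p = 0.000584) and MMP11 at 0.91 (adjusted p = 0.0315). Untreated NS1 libraries held as few as 10 reads of MMP13, 7 of MMP19 and 8 of MMP11. Of the 7 inhibitors 1 was higher, TIMP2, and 2 were lower: SERPINB2 at -1.08 (adjusted p = 0.000103) and SERPINE2 at -0.71 (adjusted p = 2.53e-05), both inhibitors of plasminogen activators or related serine proteases. TIMP3 was not called (0.42, adjusted p = 0.0529). Of the 7 partners of plasminogen 3 were higher and none lower, and of the 12 ADAM and ADAMTS genes 3 were higher and 3 lower. In WT cells no gene of the 4 lists was called in either fit.

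Between the untreated lines, 1 of 8 further metalloproteinases was called, MMP17 lower in NS1 cells (-2.55, adjusted p = 0.000533), 1 of 7 inhibitors, TIMP3 lower (-1.596, adjusted p = 0.00661), no partner of plasminogen, and 4 of 12 ADAM and ADAMTS genes, where 12.5% of all genes were called. The 4 were all higher, with ADAMTS12 at 2.12 (adjusted p = 5.63e-06), ADAM12 at 1.40 and ADAMTS1 at 0.92. Between the treated lines 4 of 8, 2 of 7, 4 of 7 and 4 of 12 genes of the 4 lists were called, where 28.2% of all genes were. MMP13 at 2.59, MMP24 at 1.40, TIMP2 at 0.88, LRP1 at 1.52, MRC2 at 0.66, ADAMTS12 at 2.68 and ADAMTS5 at 1.76 were higher in NS1 cells. MMP17 at -1.93, TIMP3 at -0.98, PLGRKT at -0.58 and ADAM8 at -1.71 were lower.

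**Figure D4:**
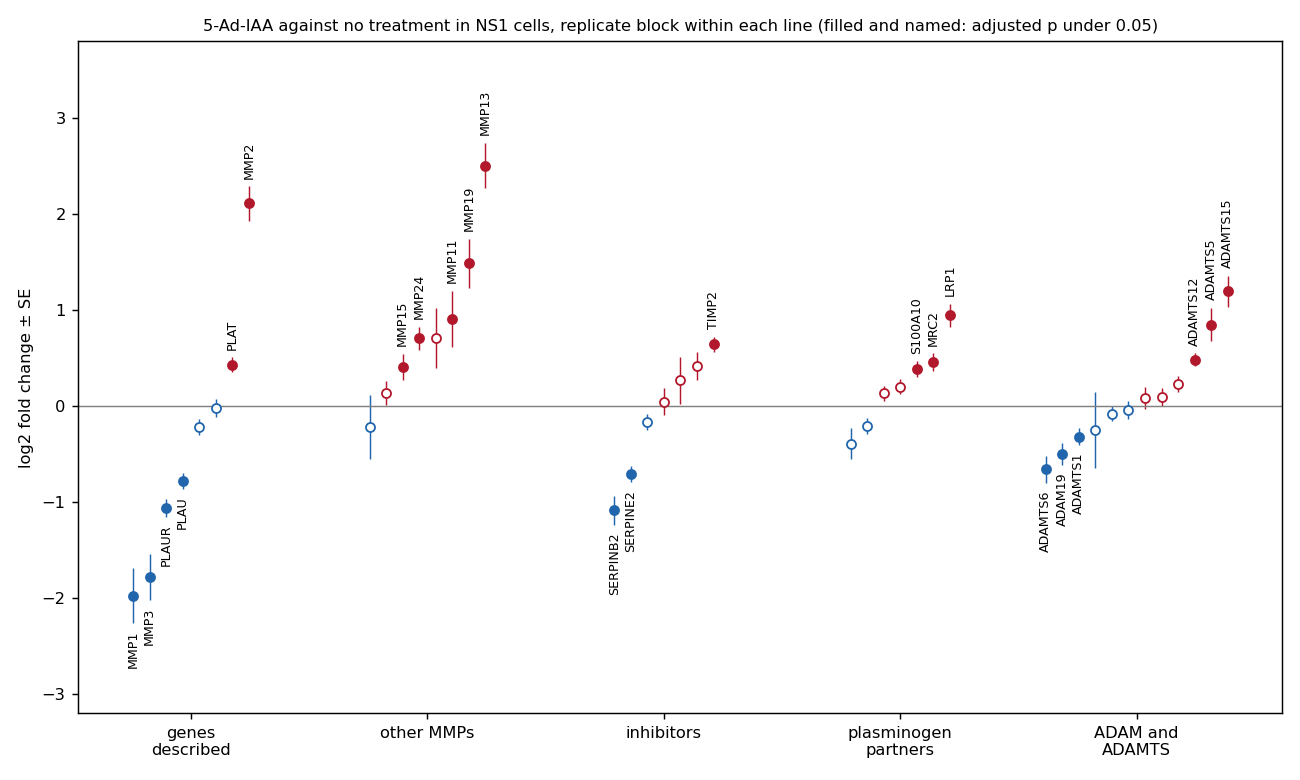
Log2 fold change with the inducer in NS1 cells, with bars of 1 SE, for the tested genes of the set described and of the 4 other lists, from the fit with a block for each replicate number within each line. Filled, named points passed the threshold, and the further metalloproteinases have 5 of these above 0 and none below. Of all genes tested 13% passed above 0 and 12.8% below.

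The genes whose pattern over the 12 libraries was most like each of these were found by the root mean square difference of centred log2 CPM values. MMP1 and MMP3 had each other among their closest 2, at 0.961, after WTAPP1 at 0.695 for MMP1. WTAPP1 is a pseudogene on the opposite strand that shares 150 exon bases with MMP1 and 32 with MMP3. PLAU was closest to its overlapping neighbour C10orf55 at 0.0524. PLAUR was closest to NT5E at 0.211 and TNFRSF6B at 0.229, MMP2 to GASK1B at 0.385 and SCNN1A at 0.416, and MMP14 to STARD4 at 0.118 and CCDC9B at 0.126. PLAT was closest to a gene listed as ENSG00000286670 at 0.226 and to MVD at 0.258, and TIMP1 to YIF1B at 0.0659 and C19orf33 at 0.0673. These distances describe libraries that share their depth and their replicate numbers.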

How the data were processed

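The authors deposited 1 table of raw counts, whole numbers by gene and library, which is not normalised. STAR 2.7.3a, featureCounts 1.6.4 and hg38 are listed in the submitters' processing notes. The annotation release, the strand setting and the treatment of reads with several matches are not given in the sources used here. Symbols were found for 60261 of the 60603 identifiers. Exon lengths and overlaps were taken from GENCODE 29 on GRCh38, whose gene versions differ from the table's for 8 of the 9 genes, so levels per kilobase are approximate.

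Counts were fitted with edgeR 4.0.16 in R 4.3.3: filterByExpr over the 4 groups, TMM scaling, 1 quasi-likelihood model with 4 group means for the 12 libraries, glmQLFTest, and Benjamini-Hochberg adjustment over 17775 genes. Each SE was derived from the log2 fold change and its F statistic. CPM values use TMM-scaled totals, and per-library depth of 10593934 to 20266996 counts sets their precision, which covers counting error only. Replicates differed by more than sampling noise in every group, with a chi-square per degree of freedom of at least 3.03.

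Same-numbered untreated and treated libraries had correlations of deviations from their group means of 0.71, 0.39 and 0.38 in NS1 cells. In WT cells they were 0.75, 0.38 and 0.26. The label numbers were taken as pairs by the rule used (every same-number value over 0.1). Values across numbers 2 and 3 were 0.28 and 0.37 in NS1 and 0.25 and 0.37 in WT cells. In WT cells the 0.37 was above the same-number value of replicate 3. All values across number 1 and another number were negative. Deviations within a group cancel, so a replicate 1 that stands apart can alone give positive values within and across numbers 2 and 3. The rule therefore does not show that numbers 2 and 3 pair the libraries. Blocked fits are given beside those results. Alternatives were RLE size factors, library totals, other count filters, DESeq2 1.42.0, blocks, separate fits and leaving out libraries. The fitting steps were tested on simulated data. All 9 genes are named whatever their values, with up to 3 called genes of the largest change per list and comparison, SERPINB2, TIMP2, TIMP3 and MMP9, and the 2 genes most like each of the 8 tested, except that 2 genes the rule names are not reported here. The 9 genes and the lists were chosen with earlier results of these data known.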

Additional observations from a re-analysis of the deposited data

Results flagged for a closer look

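For 6 of the 8 tested genes the interaction of genotype and inducer was called with a block for each replicate number within each line. This tests the difference between NS1 and WT cells itself (edgeR's quasi-likelihood test, Benjamini-Hochberg adjustment over all genes). The block takes libraries with the same number as pairs, and whether numbers 2 and 3 are true pairs was not tested. The interaction on the log2 scale, NS1 minus WT, was -2.00 for MMP1 (adjusted p = 0.00069), -2.07 for MMP3 (adjusted p = 0.000202), -0.83 for PLAU (adjusted p = 0.000354), -1.10 for PLAUR (adjusted p = 9.39e-05), 2.41 for MMP2 (adjusted p = 5.53e-05) and 0.44 for PLAT (adjusted p = 0.013). With this fit 14% of all genes tested were called. Without pairing, over all libraries and with the main count filter, none of the 6 was called by edgeR's quasi-likelihood test, and DESeq2 called PLAU. Without replicate 1 and without a block, which leaves 2 libraries per group, 4 of them were called by edgeR's test (MMP1, MMP2, MMP3 and PLAUR). In that fit 3.24% of all genes were called. The number called with no low-count filter is given below. Groups of 3 were not given an outlier test, and the distance of replicate 1 from the others is described with the values above.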

How the results depend on the processing

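Of the genes described, the number called for the inducer in NS1 cells was 1 of the 8 tested, where 6.15% of all genes were called. It became 5 with no low-count filter, 2 with DESeq2 and 3 when only the groups compared were fitted. With a replicate block it was 3 (13.6% of all genes), and with a replicate block within each line 6 (25.9%). Leaving out libraries gave 0 to 5. For the interaction it went from 0 (0.0225% of all genes) to 5 with no filter, 1 with DESeq2, and 0 to 4 on leaving out libraries. It was 1 with the replicate block (3.57% of all genes) and 6 with the block within each line (14%). Between treated lines it went from 2 (28.2% of all genes) to 5 with no filter and 1 with at least 10 counts in every library. It was 5 with the replicate block, 4 with only the groups compared, and 0 to 5 on leaving out libraries. Between untreated lines it went from 1 (12.5% of all genes) to 5 with no filter, 3 with the replicate block, and 0 to 5 on leaving out libraries. Counts without a share of all genes beside them are not read as results about these genes. Between lines the numbers do not pair the libraries, whose same-number correlations ran as low as 0.07 and 0.006. In WT cells the number stayed 0 in every alternative run. Over all genes, calls for the inducer in NS1 cells went from 1093 to 1801 with no filter, 2421 and 4596 with the blocks, 2021 without replicate 1 and 0 without replicate 2 or 3. Library totals in place of TMM moved the share of those calls that were higher from 44.8% to 32.8%, and between treated lines from 48.5% to 36.9%. No called gene of the 9 reversed. MMP10, with at most 10 reads in any library, did not pass the main count filter, and no result for it is given. The fit with no low-count filter kept it, so the numbers called there are over all 9 genes. Apart from fewer genes or libraries in a fit, the cause of these moves was not tested.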
